A study of Homo sapiens with 12 samples.

Results

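INA-6 is an established human myeloma cell line, a malignant plasma cell line that is kept alive in culture by added interleukin-6 (IL-6). The levels described here are those of its solvent controls, the 4 of 12 arrays whose titles call them INA-6 control. The cells of these arrays grew in RPMI1640 medium with 10% fetal calf serum, antibiotics and 2 ng/ml IL-6 and received DMSO, the solvent of the inhibitors. The other 8 arrays carried a Raf inhibitor or a MEK inhibitor and were not used. The labels read here do not say how long DMSO was present, so these are solvent-treated and not untouched cells. All values come from 1 cell line in culture. The design text calls the 4 arrays biological replicates, and nothing in the labels says which cultures they came from, so errors and p-values measure the spread between these arrays.

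Plasma cells are the antibody-secreting end stage of the B cell lineage. The factors IRF4, PRDM1 and XBP1 install the secretory program and shut down that of the B cell, and the endoplasmic reticulum (ER) expands to fold immunoglobulin. IL-6 binds its receptor IL6R, which pairs with the shared signalling chain IL6ST (gp130). JAK kinases on this chain then switch on STAT3 as well as the RAS, RAF, MEK and ERK cascade and PI3K.

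Each value is a log2 level of a probe set, a group of short probes against 1 transcript, on an Affymetrix HG-U133 Plus 2.0 array. A step of 1 on this scale is a doubling of signal. Probe sets differ in how well they bind, so a level places a gene against background and against the spread of all genes and does not count its transcripts, and no ratio between genes was formed. The background line of an array was the 95th percentile of 75 genes restricted to tissues such as liver, heart and retina, and it lay at 7.64, 7.69, 7.74 and 7.62 on replicates 1 to 4. The high line was the 90th percentile of all genes and lay at 10.8, 10.9, 10.6 and 10.6. A gene was called high when at or above the high line on 4 of 4 arrays, near background when at or under the background line on 4 of 4, moderate when above the background line on 4 of 4 without being high, and mixed when the arrays lay on both sides. Separately, a gene was said to be above background when its mean exceeded the line in limma's moderated test, one-sided, at a Benjamini-Hochberg adjusted p under 0.05 over all 19775 genes. Values after ± are SD over 4 arrays.

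Of the 19775 genes, 1783 were high (9.02%), 6240 moderate (31.6%), 903 mixed (4.57%) and 10849 near background (54.9%). The test placed 7983 genes (40.4%) above background, and 8023 (40.6%) lay above the line on 4 of 4 arrays. The 20 highest mean signals, a ranking of probe signal, came mostly from the protein synthesis machinery. Of the 20 genes with the highest mean levels, those outside the ribosome were FTL, the ferritin light chain, at 14.73 ± 0.14, EEF1A1, the elongation factor that brings transfer RNA to the ribosome, at 14.63, PABPC1, which binds messenger RNA tails, at 14.53, and UBB, a ubiquitin gene, at 14.35. Ribosomal protein gene RPL41 had 14.57, 14.71, 14.79 and 14.95 on replicates 1 to 4. Many of these probe sets can read near-identical copies and pseudogenes.

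**Figure D1:**
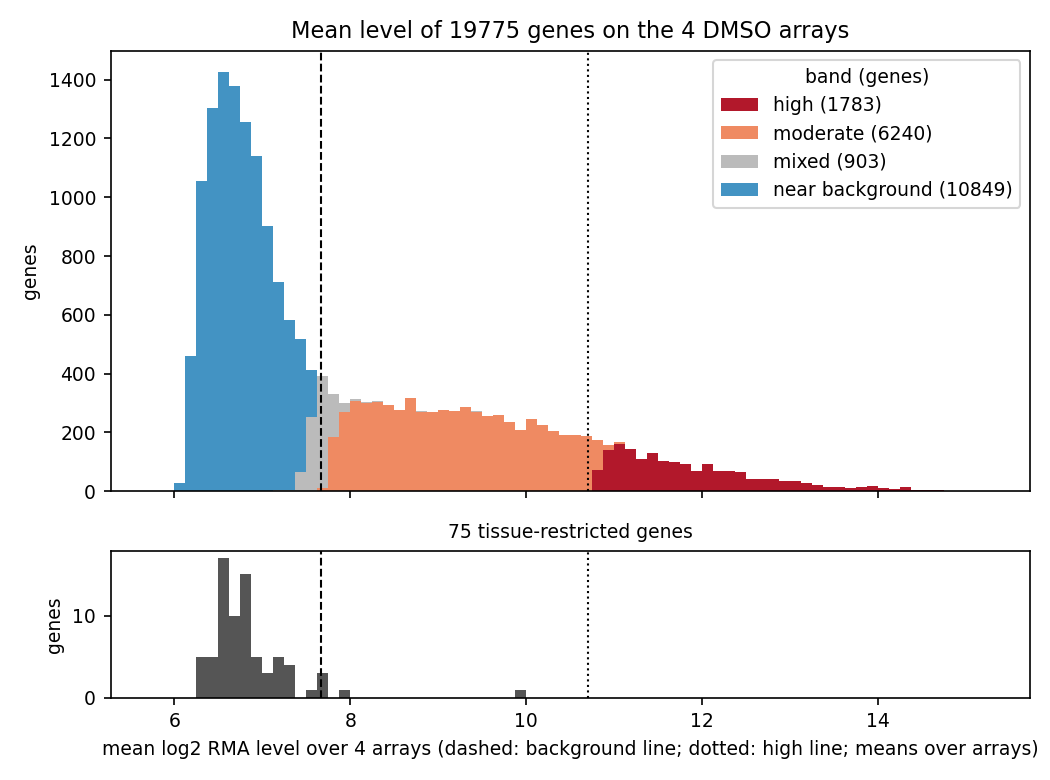
Number of genes (vertical axis) by mean log2 RMA level over the 4 DMSO arrays (horizontal axis), coloured by band, with the 75 tissue-restricted genes in the lower panel; dashed and dotted lines are the background and high lines averaged over arrays. The largest peak lies under the background line and holds 10849 near-background genes, and the 1783 high genes form the right tail.

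Protein-coding genes and long noncoding RNAs fell into different bands. Of 16521 protein-coding genes, 7943 (48.1%) were near background and 1762 (10.7%) high, while of 2658 long noncoding RNAs 2423 (91.2%) were near background and 13 (0.489%) high. The high ones, chosen after their values were seen, included MALAT1, a nuclear RNA of speckles, at 12.46, DANCR at 12.07, ZFAS1 at 11.67, FAM30A at 11.56 and NORAD at 11.55. Promoters also differed by band. The RefSeq promoter table for GRCh38.p14 gives 250 bases before and 50 after a gene's start and matched 13456 of the protein-coding genes. Median GC content was 64% for 1506 high genes, 65.7% for 5125 moderate genes and 60.7% for 6204 genes near background. The ratio of observed to expected CG pairs, high in CpG islands, had medians of 0.884, 0.858 and 0.605 in the same order. The letters TATAAA, searched on the coding strand, stood in 4.25%, 2.63% and 8.98% of these promoters, against 5.86% of all 13456.

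Replicates 1 and 2 stood apart from the other arrays in a few genes each. A gene was counted when its level on 1 array was at least 1 above the highest of the other 3. Replicate 1 had 7 such genes and replicate 2 had 73, while replicates 3 and 4 had 0 each, and no gene lay 1 below the other arrays on any of the 4. All 7 on replicate 1 were metallothioneins, small cysteine-rich proteins that bind zinc, copper and cadmium and whose genes are switched on by metals. Of the 73 on replicate 2, 29 were in the list of 36 interferon response genes, of which 34 were measured. Replicates 3 and 4 bear an R in their short label, an unexplained mark, and both arrays that stood apart lack it.

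Interferon response genes were all highest on replicate 2, in 34 of 34. The share of all genes highest on that array is not given here. Of all high genes 10.7%, and of moderate genes 18.2%, had a higher mean on replicates 3 and 4 than on 1 and 2. The median level of the interferon list was 7.33, 11.26, 7.49 and 7.60 on replicates 1 to 4, and 13, 30, 14 and 17 members lay above the line. ISG15, a ubiquitin-like protein that is attached to other proteins, had 7.47, 13.77, 7.98 and 8.40, and replicate 2 was 55.3 times the median of the other 3 on the linear scale. IFI27 followed with 7.17, 13.11, 7.50 and 7.93, and IFIT3, of a family that binds foreign RNA, with 6.52, 12.04, 6.75 and 6.96. Replicate 2 does not overlap the other arrays for any of these genes. IFNB1, the gene of interferon beta itself, had 6.50, 8.45, 6.61 and 6.69, above the line on replicate 2 alone, and was chosen after its values were seen. Beyond the list, replicate 2 stood higher for TRIM22, an antiviral factor, at 11.20 against 6.35 ± 0.16 (n = 3), and for CCL4, a chemokine, at 8.85 against 6.70 ± 0.07 (n = 3), both also chosen after their values were seen. The receptor chains IFNAR1 (9.13 ± 0.08) and IFNAR2 (10.66 ± 0.10), through which type I interferon acts, were in the moderate band. With 4 arrays 12 of 34 members were above background in limma (35.3%, against 40.4% of all genes), and without replicate 2, 13 were. Members high on the other arrays too were IFITM1, which blocks virus entry, at 12.45 ± 0.79, or 12.07 ± 0.34 (n = 3) without replicate 2, and BST2, which tethers viruses to the cell surface, at 11.94 ± 0.43, or 11.72 ± 0.08 (n = 3) without it.

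Metallothioneins were highest on replicate 1 in 8 of 8 measured genes, and the share of all genes highest there is not given here. MT2A, a widely expressed form, had 13.33, 9.30, 9.01 and 8.91, which puts replicate 1 at 20 times the median of the others. MT1G had 12.83, 8.47, 8.26 and 8.15, and MT1X 12.73, 9.02, 8.81 and 8.50. Replicates 2 to 4 lay close together for these 3 genes and above the background line. MT1M, the exception among the 8, was near background with 7.06, 6.32, 6.31 and 6.45. The zinc exporter SLC30A1, also a gene that responds to metal and chosen after its values were seen, had 11.69, 11.53, 11.16 and 11.34 and did not stand apart. Metallothionein genes are near copies, and 7 of the 8 probe sets carry Affymetrix's mark for probes that can match other transcripts, so they are not 8 separate results. Whether the cultures of replicates 1 and 2 met a stimulus was not tested.

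**Figure D2:**
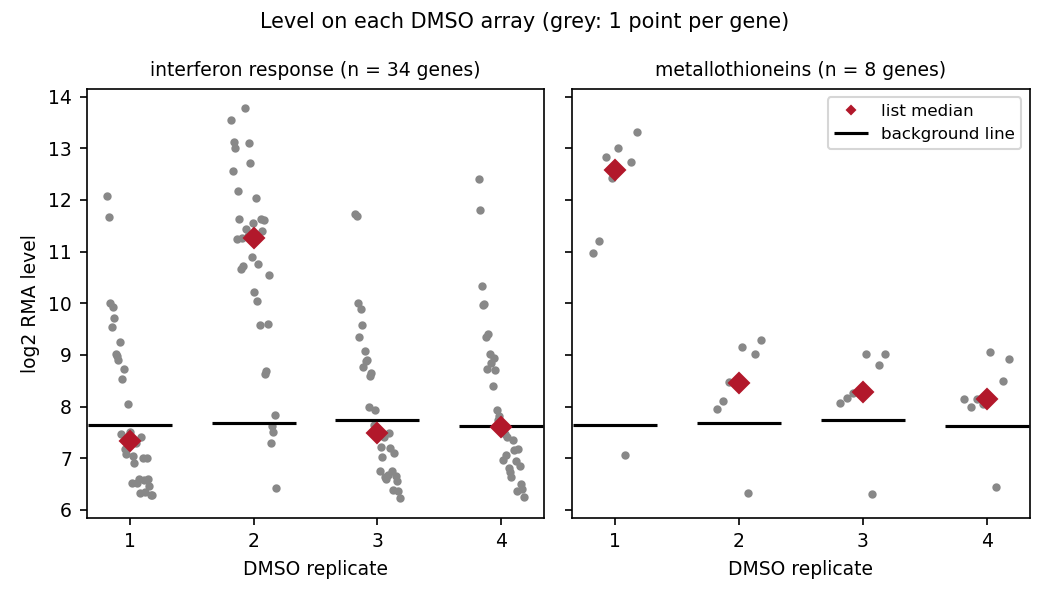
Log2 RMA level (vertical axis) on each DMSO replicate (horizontal axis) of 34 interferon response genes, left, and 8 metallothioneins, right; grey points are genes, red diamonds list medians and black bars background lines. The interferon median is 11.26 on replicate 2 and 7.33 to 7.60 elsewhere, and the metallothionein median is 12.58 on replicate 1 and 8.14 to 8.46 elsewhere.

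The promoters of both groups are shown because their members moved together. The interferon-stimulated response element, searched as GAAA, any 2 bases and GAAA on both strands, stood in 19 of 28 list promoters in the table (67.9%), against 3.65% of all 27305 promoters of the same length. In the following sequences the capitals mark matches to it. ISG15 lies at chr1:1013247-1013546, plus strand, and its matches overlap each other. IFIT1 lies at chr10:89392373-89392672, plus strand, and both its matches are on the other strand.
ISG15: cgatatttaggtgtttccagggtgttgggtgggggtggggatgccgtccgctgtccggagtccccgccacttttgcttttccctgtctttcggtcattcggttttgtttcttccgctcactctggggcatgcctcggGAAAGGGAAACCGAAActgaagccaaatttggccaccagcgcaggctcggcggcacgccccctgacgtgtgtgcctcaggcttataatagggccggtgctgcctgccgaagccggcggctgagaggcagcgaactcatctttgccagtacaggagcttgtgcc
IFIT1: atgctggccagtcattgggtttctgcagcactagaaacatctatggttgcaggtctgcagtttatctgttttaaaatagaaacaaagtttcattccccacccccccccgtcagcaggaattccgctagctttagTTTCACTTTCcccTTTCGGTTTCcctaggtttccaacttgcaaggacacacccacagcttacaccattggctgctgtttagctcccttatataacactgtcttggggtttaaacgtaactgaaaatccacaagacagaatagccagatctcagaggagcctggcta

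The core of the metal response element, searched as TGCACNC or TGCGCNC on both strands, stood more than once in 3 of 3 metallothionein promoters in the table, against 8.59% of all promoters. MT2A (chr16:56608334-56608633, plus strand) had 8 matches and MT1X (chr16:56682220-56682519, plus strand) had 4, in capitals. A match is a string of letters and not a measured binding site. All coordinates are on GRCh38.p14 and the sequences are RefSeq's.
MT2A: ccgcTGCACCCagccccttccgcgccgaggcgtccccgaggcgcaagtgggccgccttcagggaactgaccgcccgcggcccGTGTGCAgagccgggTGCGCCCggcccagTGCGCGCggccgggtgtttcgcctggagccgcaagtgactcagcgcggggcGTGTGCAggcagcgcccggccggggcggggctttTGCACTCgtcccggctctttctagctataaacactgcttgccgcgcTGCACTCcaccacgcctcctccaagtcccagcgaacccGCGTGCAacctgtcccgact
MT1X: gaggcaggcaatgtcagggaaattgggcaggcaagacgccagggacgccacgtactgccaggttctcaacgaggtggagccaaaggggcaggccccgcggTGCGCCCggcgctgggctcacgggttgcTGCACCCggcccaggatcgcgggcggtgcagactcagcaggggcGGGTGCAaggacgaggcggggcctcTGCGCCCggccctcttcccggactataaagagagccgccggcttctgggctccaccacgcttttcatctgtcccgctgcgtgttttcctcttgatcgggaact

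Plasma cell genes were set beside the labelled cell type. The lists were chosen with earlier results of these data known, so these counts are not an independent check of the label. All 10 measured regulators of plasma cells were above background, 6 of them high, where 40.4% of all genes were above and 9.02% high. POU2AF1, a coactivator of immunoglobulin genes, had 13.60, 13.76, 13.48 and 13.64. XBP1, which expands the ER, had 13.08, 12.81, 12.51 and 12.81. IRF4, on which myeloma cells are known to depend, had 11.88, 11.99, 11.88 and 11.88, a spread of 0.05. These 3 factors were high on every DMSO array by their brightest probe set. Under the line on 4 of 4 arrays were 1 of 2 probe sets for POU2AF1, 1 of 2 for XBP1 and 1 of 3 for IRF4. TENT5C, a poly(A) polymerase often lost in myeloma, was at 12.46 ± 0.22, ELL2, which helps plasma cells switch to secreted immunoglobulin, at 11.99 ± 0.27, and CREB3L2 at 10.99 ± 0.20. PRDM1, the repressor of the B cell program also called Blimp-1, was moderate at 10.53 ± 0.27. So were IKZF1 (10.43 ± 0.20) and IKZF3 (8.92 ± 0.03), the zinc finger factors degraded under lenalidomide, and POU2F2 (8.75 ± 0.09).

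Surface proteins of plasma cells were split. Of 15 measured, 9 were above background (60%, against 40.4% of all genes), 1 was mixed and 5 were near background. TNFRSF17, the receptor BCMA targeted by engineered T cells, had 13.05, 13.03, 12.91 and 12.86. SDC1, the proteoglycan CD138 that defines plasma cells, had 10.68, 10.95, 10.57 and 10.79 and was moderate, lying near the high line. SLAMF7, the target of elotuzumab, was high at 10.95 ± 0.21, as were CD48 (11.82 ± 0.34), the hyaluronan receptor CD44 (11.91 ± 0.28), the homing receptor CXCR4 (11.76 ± 0.27) and the integrin chain ITGA4 (11.33 ± 0.28). FCRL5 was at 9.79 ± 0.14. CD38, the target of daratumumab, had 9.23, 10.95, 8.81 and 9.21: it was highest on replicate 2, the array with high interferon response genes, and its mean was 9.55 ± 0.95 with that array and 9.08 ± 0.24 (n = 3) without it. The part of the interferon genes in this value was not tested. Near background lay GPRC5D (7.12 ± 0.13), another target of T cell therapies, CD27 (6.96 ± 0.14), found on normal memory and plasma cells, TNFRSF13B (7.22 ± 0.03), and NCAM1 (7.14 ± 0.11) and CD28 (6.56 ± 0.10), often gained in myeloma.

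JCHAIN, which joins immunoglobulin subunits into polymers, was high with 14.07, 14.06, 13.93 and 13.74. IGKC, the kappa light chain constant gene, was high with 12.91, 13.46, 13.03 and 12.93. IGLC1, of the lambda locus, was moderate at 9.66 ± 0.54. Of the heavy chain genes with probe sets of their own, IGHG1 (7.22 ± 0.16), IGHD (7.08 ± 0.18) and IGHA1 (6.68 ± 0.09) were near background and IGHM (7.62 ± 0.16) was mixed. Most heavy chain probe sets list several genes and cannot be assigned to 1. Of 33 such probe sets, 3 were above the line on 4 of 4 arrays and the highest mean was 10.79. Of 11 probe sets shared by kappa genes, 6 were above and 5 high, up to 14.21, and of 5 shared by lambda genes 1 was above, at 8.58. IGKC and IGLC1 had 4 of 8 and 2 of 9 probe sets above the line, so single probe sets of these genes disagree.

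**Figure D3:**
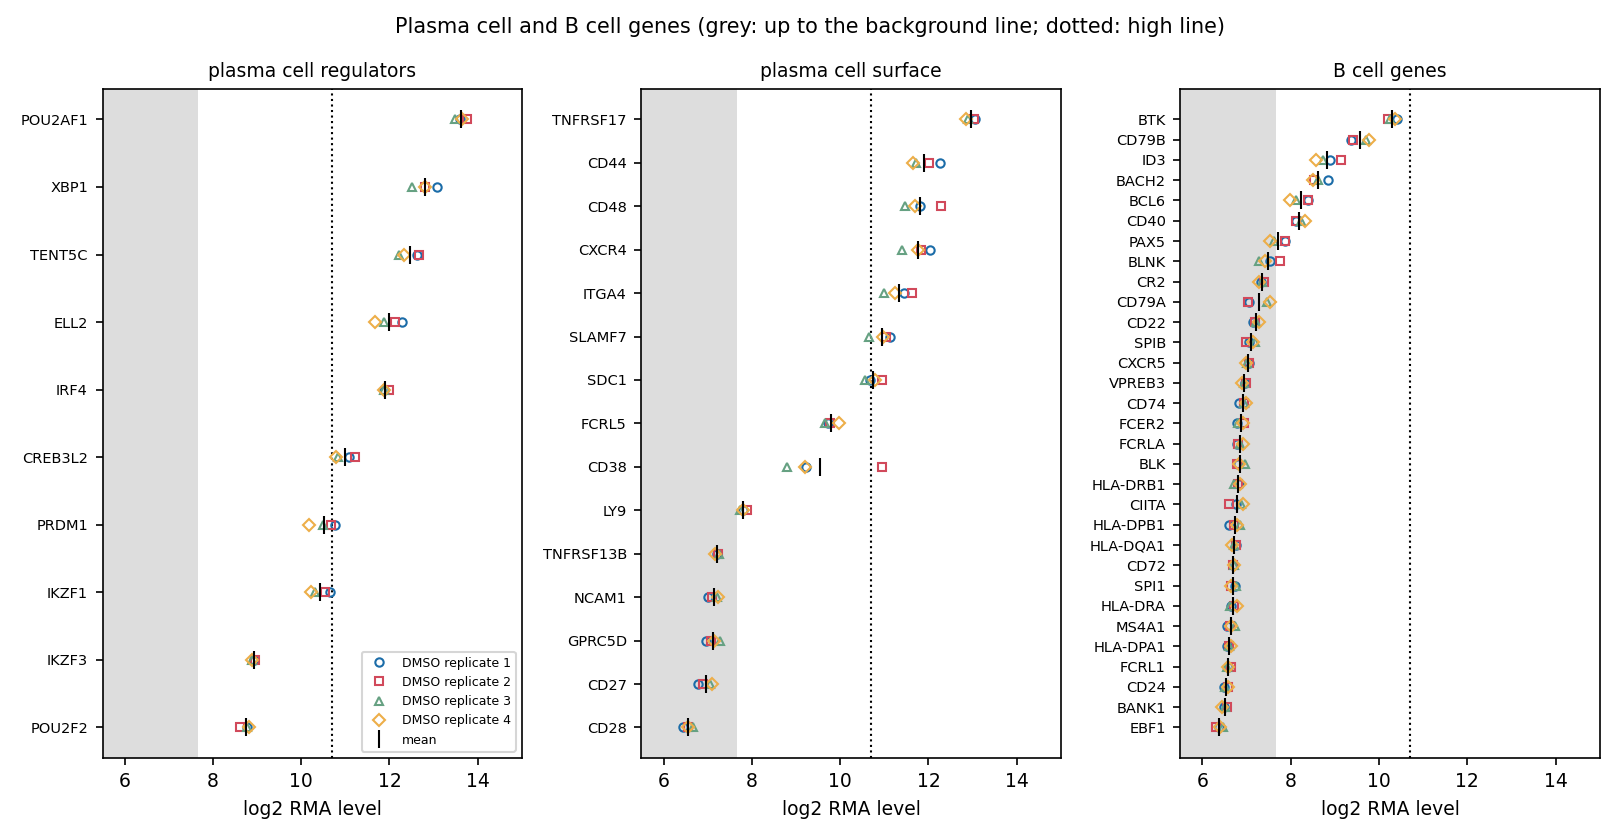
Log2 RMA level (horizontal axis) of plasma cell regulators, plasma cell surface genes and B cell genes (rows) on each DMSO replicate (symbols) with the mean (bar); grey is the range up to the mean background line and the dotted line is the mean high line. The 10 regulators lie above the grey range, while 23 of 31 B cell genes lie inside it on every array.

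B cell genes gave the opposite picture: 6 of 31 measured were above background (19.4%, against 40.4% of all genes), or 3 with the line at the 99th percentile, 2 were mixed and 23 near background. The 5 measured MHC class II chains, which present antigen, were near background, with HLA-DRA at 6.65, 6.71, 6.63 and 6.78, its master regulator CIITA at 6.79 ± 0.13 and the invariant chain CD74 at 6.92 ± 0.07. The CD20 gene MS4A1 (6.64 ± 0.08), the early B cell factor EBF1 (6.38 ± 0.06) and SPIB (7.09 ± 0.09) were near background too. PAX5, which holds B cell identity, was mixed at 7.72 ± 0.18. The 6 above background were BTK, a kinase of the B cell receptor, at 10.30 ± 0.10, CD79B, a chain of that receptor, at 9.56 ± 0.20, ID3 (8.83 ± 0.23), BACH2, a repressor of PRDM1, at 8.62 ± 0.16, BCL6, the germinal centre repressor, at 8.22 ± 0.20, and CD40 (8.20 ± 0.10). CD79A, the partner chain of CD79B, was near background at 7.27 ± 0.26. With plain probe sets alone, those not marked as able to match several transcripts, CD79B lay under the line.

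The secretory machinery was above background in 30 of 30 measured genes (100%, against 40.4% of all genes). Of them 20 were high (66.7%, against 9.02% of all genes), and the median level was 11.63 against 7.29 for all genes. HSPA5, the ER chaperone BiP that binds unfolded immunoglobulin heavy chains, had 13.44, 13.80, 13.38 and 13.30. Its partners DNAJB11 (12.06 ± 0.22), HSP90B1 (11.37 ± 0.41) and MANF (11.99 ± 0.10) were high, as was MZB1, a chaperone of B and plasma cells, at 11.69 ± 0.12. The disulfide isomerases PDIA6 (12.88 ± 0.12), P4HB (12.20 ± 0.12) and PDIA4 (11.86 ± 0.19), and SEC61B (13.14 ± 0.08) of the translocation channel, were high. The sensors of unfolded protein were moderate: EIF2AK3 at 10.66 ± 0.38, ATF6 at 9.69 ± 0.06 and ERN1, which splices XBP1, at 9.04 ± 0.17. DERL3, of ER-associated degradation, was also moderate, at 8.35 ± 0.20.

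The ER stress element, searched as CCAAT, any 9 bases and CCACG on both strands, stood in 5 of 28 promoters of this list in the table (17.9%), those of HSPA5, HSP90B1, CALR, CANX and CRELD2, against 22 of 27305 promoters (0.0806%). The sequences of HSPA5 (chr9:125241294-125241593, minus strand) and HSP90B1 (chr12:103930160-103930459, plus strand) are shown with the matches in capitals, since these chaperones are among the high genes. HSP90B1 has a match on each strand.
HSPA5: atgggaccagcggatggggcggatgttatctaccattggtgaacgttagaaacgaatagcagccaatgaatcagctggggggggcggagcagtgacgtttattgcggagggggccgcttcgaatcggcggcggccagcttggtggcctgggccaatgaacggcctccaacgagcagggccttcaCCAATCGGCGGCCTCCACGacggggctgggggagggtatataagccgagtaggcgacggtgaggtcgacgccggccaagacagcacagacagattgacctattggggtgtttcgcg
HSP90B1: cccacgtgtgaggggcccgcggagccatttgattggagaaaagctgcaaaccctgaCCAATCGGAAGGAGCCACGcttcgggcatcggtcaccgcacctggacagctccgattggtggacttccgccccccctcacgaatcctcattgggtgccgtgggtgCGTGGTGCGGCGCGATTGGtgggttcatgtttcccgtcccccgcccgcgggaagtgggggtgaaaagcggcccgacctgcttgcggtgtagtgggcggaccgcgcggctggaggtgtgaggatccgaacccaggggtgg

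Proteasome genes, whose product degrades misfolded protein and is the target of bortezomib, were high in 21 of 21 measured. That is 100%, against 9.02% of all genes, and their median was 12.62. PSMB5, the subunit bortezomib binds, had a mean of 11.01 ± 0.21. The immunoproteasome subunits, which interferon is known to raise, were high as well: PSMB8 at 11.33 ± 0.43, or 11.12 ± 0.13 (n = 3) without replicate 2, PSMB9 at 11.05 ± 0.52, or 10.79 ± 0.05 (n = 3) without it, and PSMB10 at 11.14 ± 0.17. Of 17 genes of therapy targets and drug handling, 14 were above background (82.4%, against 40.4% of all genes). CRBN, the cereblon that lenalidomide binds, was moderate at 9.40 ± 0.26, its ligase partners DDB1 (11.23 ± 0.10) and CUL4A (11.01 ± 0.32) were high, and XPO1, the exporter blocked by selinexor, was high at 12.91 ± 0.13. NR3C1, the glucocorticoid receptor, was at 9.60 ± 0.15. The drug efflux pump ABCB1 (6.81 ± 0.10) and BCL2 (7.44 ± 0.12), the venetoclax target, were near background.

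IL-6 itself was near background in these cells that receive it: IL6 had 6.46, 6.60, 6.61 and 6.56, each more than 1 under its array's line. Its receptor chains were above background. IL6R was moderate with 10.43, 10.18, 9.84 and 9.77, and IL6ST was high with 11.46, 11.48, 10.92 and 11.03. Both were higher on replicates 1 and 2 than on 3 and 4, as were most high and moderate genes. Of 7 IL6ST probe sets 2 were above the line on all arrays and 4 under it, so the gene's level rests on the brighter ones. The receptors of the related cytokines were near background for OSMR (6.75 ± 0.13), LIFR (7.03 ± 0.20), CNTFR (7.26 ± 0.11) and IL11RA (7.30 ± 0.09), whereas IL27RA was moderate at 9.28 ± 0.16.

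Downstream of the receptor, JAK1 was high with 11.10, 11.12, 10.71 and 10.56, TYK2 was moderate at 8.78 ± 0.12, and JAK2 was mixed at 7.38 ± 0.28, above the line on replicate 2 alone. STAT3, the main IL-6 effector, was moderate with 10.86, 10.88, 10.36 and 10.34. STAT5B was moderate (8.37 ± 0.10) and STAT5A near background (7.38 ± 0.05). PTPN11, the phosphatase SHP2 that links IL6ST to RAS, was high at 12.08 ± 0.15. Targets of STAT3 spanned all bands. MCL1, a survival protein, was high at 12.28 ± 0.41, and the kinases PIM2 (10.81 ± 0.22), PIM3 (10.80 ± 0.26) and PIM1 (8.14 ± 0.06) were moderate. Of the feedback inhibitors, SOCS2 (9.23 ± 0.07) and SOCS3 (9.19, 8.93, 8.19 and 8.38) were moderate, CISH was mixed at 7.73 ± 0.08 and SOCS1 near background at 6.90 ± 0.05. Probe sets above the line on 4 of 4 arrays were 1 of 4 for SOCS3, 1 of 3 for SOCS2, 1 of 5 for STAT5B and 2 of 6 for PTPN11. Under it on 4 of 4 arrays were 3, 2, 3 and 3 in the same order, so these levels rest on the brighter probe sets. Over the list, 17 of 28 measured genes were above background (60.7%, against 40.4% of all genes), 3 mixed and 8 near background. With the line at the 99th percentile 11 were above.

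**Figure D4:**
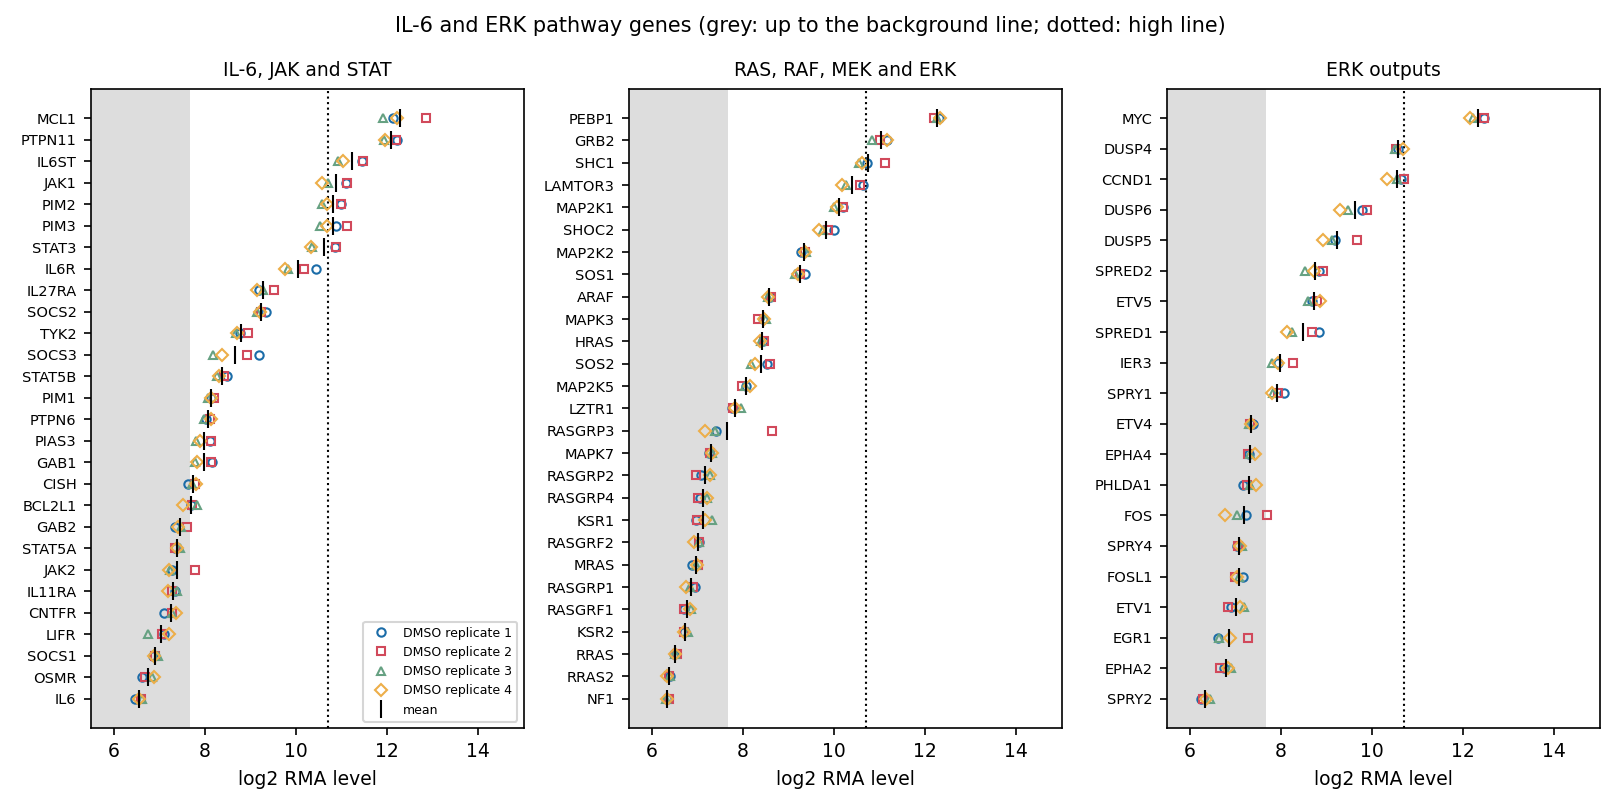
Log2 RMA level (horizontal axis) of genes of IL-6 signalling, of the RAS to ERK cascade and of ERK output (rows) on each DMSO replicate (symbols) with the mean (bar); grey is the range up to the mean background line and the dotted line is the mean high line. IL6 at 6.56 lies in the grey range on 4 of 4 arrays, whereas IL6ST at 11.22 and MYC at 12.32 lie above the high line of each array.

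Of the RAS to ERK cascade, 27 of 33 listed genes were measured, and 14 were above background (51.9%, against 40.4% of all genes), or 8 with the background line at the 99th percentile. ARAF, a Raf kinase, had 8.60, 8.61, 8.56 and 8.54. The MEK genes MAP2K1 (10.11 ± 0.10) and MAP2K2 (9.35 ± 0.05) were moderate, as were the ERK1 gene MAPK3 (8.44 ± 0.07) and HRAS (8.41 ± 0.04). The adaptors GRB2 (11.04 ± 0.16), which was high, and SHC1 (10.76 ± 0.26), and the exchange factors SOS1 (9.24 ± 0.10) and SOS2 (8.39 ± 0.20), were above background. PEBP1, a Raf-binding inhibitor, was high at 12.27 ± 0.06. Exchange factors of other cell types, RASGRP1, RASGRP2, RASGRP4, RASGRF1 and RASGRF2, were near background, between 6.77 and 7.16, and RASGRP3 was mixed with 7.40, 8.63, 7.39 and 7.17, above the line on replicate 2 alone. The scaffolds KSR1 (7.12 ± 0.17) and KSR2 (6.73 ± 0.05) were near background, and so was NF1 (6.33 ± 0.03), which here has a single probe set.

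Of 20 genes that follow ERK activity, 10 were above background with DMSO (50%, against 40.4% of all genes), 1 was mixed and 9 near background. MYC was high with 12.47, 12.45, 12.22 and 12.14. DUSP6, an ERK phosphatase, had 9.79, 9.89, 9.48 and 9.31, DUSP4 was at 10.57 ± 0.08, DUSP5 at 9.22 ± 0.32, the feedback inhibitors SPRED2 at 8.76 ± 0.17 and SPRED1 at 8.47 ± 0.34, and the ETS factor ETV5 at 8.73 ± 0.12. Near background lay SPRY2 (6.33 ± 0.08), SPRY4 (7.08 ± 0.04), ETV1 (7.01 ± 0.17), ETV4 (7.33 ± 0.04), FOSL1 (7.07 ± 0.07) and EGR1 (6.85 ± 0.31). Of 27 measured PI3K, AKT and mTOR genes 23 were above background (85.2%, against 40.4% of all genes), or 14 with the line at the 99th percentile, and 2 were high: RHEB, the activator of mTORC1, at 12.01 ± 0.14, and SGK1, a kinase related to AKT, with 12.38, 11.90, 12.13 and 11.39. For RHEB 4 of 9 probe sets were above the line on 4 of 4 arrays and 5 under it. PIK3CD (9.02 ± 0.15) and PIK3CG (8.96 ± 0.09), catalytic subunits of blood cells, AKT2 (8.75 ± 0.13) and DEPTOR, an inhibitor of mTOR, at 8.26 ± 0.20, were moderate. AKT1 (7.83 ± 0.07) was above background by its mean and mixed by its arrays, a call lost without replicate 1, 2 or 4 (adjusted p = 0.151, 0.0655 and 0.152 in limma), and IRS2 was near background (6.58 ± 0.07).

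Genes that translocations activate in myeloma fell on both sides of the line. CCND1, the cyclin of the translocation to the heavy chain locus, was moderate with 10.63, 10.70, 10.54 and 10.32, CCND3 was at 8.67 ± 0.17 and CCND2 near background at 6.71 ± 0.15. FGFR3 (6.57 ± 0.03) and MAF (6.54 ± 0.07) were near background. NSD2, the histone methyltransferase next to FGFR3 in a translocation that can activate both, was high with 11.00, 11.05, 10.86 and 10.91. All 6 of its probe sets were above the line on 4 of 4 arrays, and all 6 of MAF were under it. CKS1B, of the region often gained in myeloma, was high at 12.70 ± 0.10. Of 21 listed oncogenes and suppressors 16 were measured and 10 were above background (62.5%, against 40.4% of all genes). MYCN (7.10 ± 0.11) and MYCL (7.11 ± 0.07) were near background beside high MYC.

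In the BCL2 family MCL1 was the only high gene, with 12.13, 12.86, 11.90 and 12.22, among 15 measured. The antiapoptotic BCL2 (7.29, 7.39, 7.50 and 7.57) and BCL2A1 (6.54 ± 0.04) were near background, BCL2L1, which encodes BCL-XL, was mixed at 7.69 ± 0.13, and BCL2L2 was moderate at 8.29 ± 0.09. The effectors BAX (9.26 ± 0.06) and BAK1 (9.36 ± 0.07) were moderate. So were the BH3-only killers BID (10.76 ± 0.11), BCL2L11, or BIM, at 10.12 ± 0.30, PMAIP1, or NOXA, at 8.39 ± 0.49, BIK (8.28 ± 0.12) and BAD (8.24 ± 0.06), while BMF (7.13 ± 0.14) and HRK (6.92 ± 0.11) were near background. None of the 4 BCL2 probe sets was above the line on 4 of 4 arrays, and all 7 of BCL2L11 were. Over the family 9 of 15 were above background (60%, against 40.4% of all genes), or 5 with the line at the 99th percentile. With plain probe sets alone BCL2 and BCL2L1 were above background (adjusted p = 0.00411 and 0.000773 in limma). Their probe sets were plain already, so their levels were unchanged and only the background line was lower. The level minus the line went from -0.232 to 0.197 for BCL2 and from 0.022 to 0.451 for BCL2L1.

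The cells carried the transcripts of dividing cells. All 25 measured DNA replication genes and all 22 mitosis genes were above background (100% each, against 40.4% of all genes). Their medians were 11.24 and 11.17. TYMS, of thymidylate synthesis, was at 13.32 ± 0.08, RRM2 at 13.26 ± 0.21, PCNA at 12.74 ± 0.23, CDK1 at 12.05 ± 0.19 and CCNB1 at 12.02 ± 0.15. CDK6, the partner of D cyclins, was high with 12.27, 12.26, 12.27 and 12.16, and CDK4 high at 11.00 ± 0.05. The inhibitor genes CDKN1B (10.27 ± 0.36), CDKN2A (10.18 ± 0.11) and CDKN1A (8.71 ± 0.05) were moderate, CDKN2D (7.08 ± 0.13) and CDKN2B (7.31 ± 0.18) near background. RB1, the main target of these kinases, was high at 11.11 ± 0.26.

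Ribosomal protein genes had a list median of 14.23, with 42 of 43 measured high (97.7%, against 9.02% of all genes). The exception, RPLP2, was mixed at 7.54 ± 0.33 and neither of its 2 probe sets was above the line on 4 of 4 arrays. Oxidative phosphorylation genes were above background in 29 of 29 (100%, against 40.4% of all genes), with a median of 12.59. Of them 28 were high (96.6%, against 9.02% of all genes). Glycolysis was split by isoform, and 12 of 24 measured genes were high (50%, against 9.02% of all genes). Among these were LDHA (14.32 ± 0.09), GAPDH (13.97 ± 0.17) and PGK1 (13.31 ± 0.14). HK3 (7.32 ± 0.07), PKLR of liver and red cells (6.90 ± 0.06), PGAM2 of muscle (6.68 ± 0.08) and ENO2 of neurons (6.37 ± 0.10) were near background. HK2 was high (10.99 ± 0.15) and HK1 near background (6.87 ± 0.06). For HK1 a single probe set was named.

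**Figure D5:**
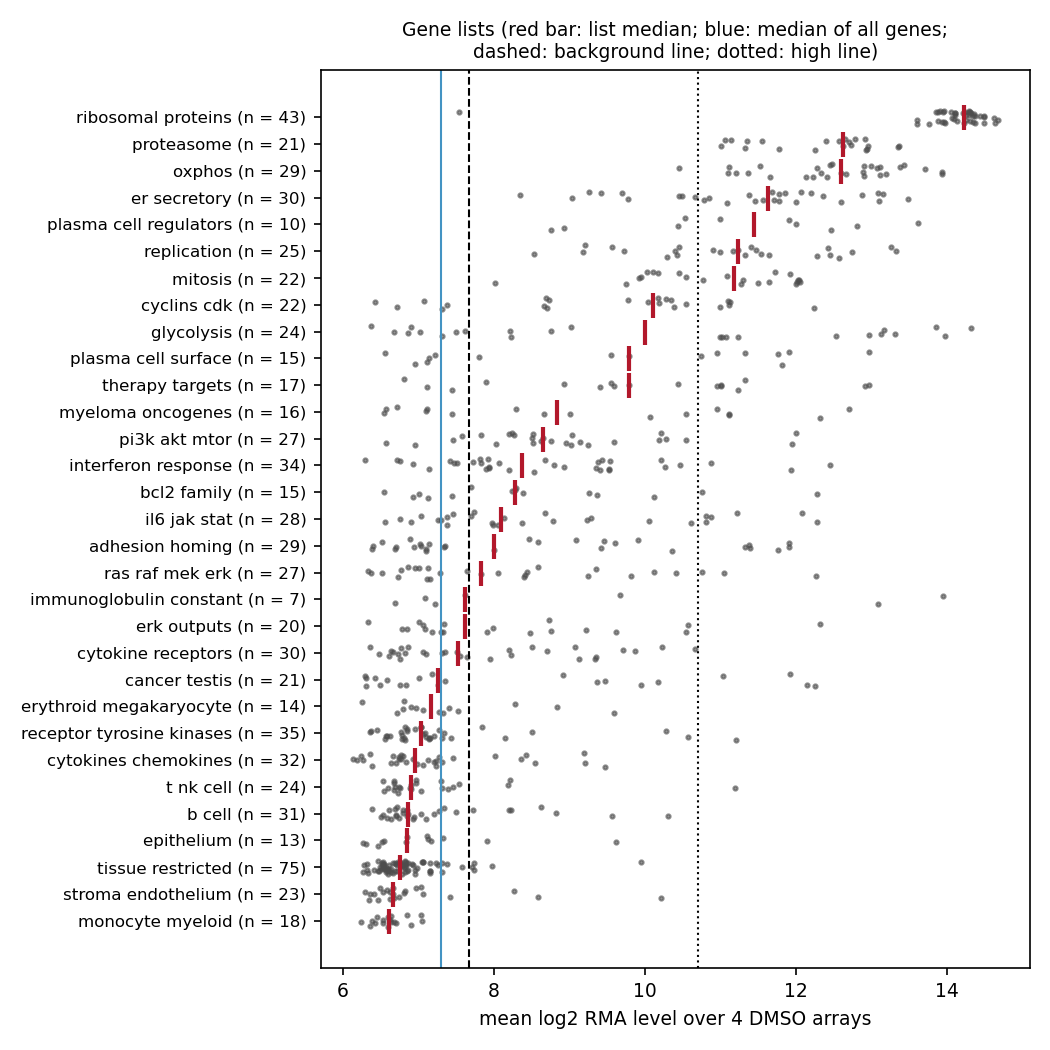
Mean log2 RMA level over 4 DMSO arrays (horizontal axis) of every measured member (grey point) of 31 gene lists (rows, number of genes in brackets), with the list median in red; the blue line is the median of all genes, the dashed and dotted lines the background and high lines. The median of ribosomal proteins, 14.23, lies above the high line and that of monocyte and myeloid markers, 6.61, under the background line.

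Most receptor tyrosine kinases were near background, 28 of 35 measured against 54.9% of all genes. The 6 above background were MET, the receptor of hepatocyte growth factor, with 11.38, 11.30, 11.05 and 11.07, PDGFRA with 10.96, 10.61, 10.31 and 10.43, INSR (10.28 ± 0.07), IGF1R (8.51 ± 0.18), KIT (8.14 ± 0.39), which was mixed by its arrays, and FGFR1 (7.84 ± 0.08). The FGFR1 call was lost without replicate 1, 2 or 4 (adjusted p = 0.178, 0.0507 and 0.0726 in limma) and that of KIT without replicate 4 (0.0756). With the line at the 99th percentile 3 of the 35 were above background. HGF, the ligand of MET, was near background at 7.24 ± 0.12. Single probe sets disagreed for MET, with 1 of 4 above the line on all arrays and 2 under it, and for PDGFRA, with 2 of 4 above and 2 under. EGFR (7.04 ± 0.09), ERBB2 (7.10 ± 0.14) and KDR (6.36 ± 0.07) were near background.

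Secreted factors were mostly near background as well, 22 of 32 measured against 54.9% of all genes. Above it were 7 (21.9%, against 40.4% of all genes), or 3 with the line at the 99th percentile. The 7 were VEGFA, which draws blood vessels, at 9.48 ± 0.36, the monocyte attractant CCL2 at 9.20 ± 0.14, IL16 at 9.19 ± 0.24, IL12A at 8.54 ± 0.31, the growth factor IGF1 at 8.43 ± 0.22, IL15 at 8.36 ± 0.31 and TGFB1 at 8.01 ± 0.06. TNFSF13B, or BAFF (6.76 ± 0.19), and TNFSF13, or APRIL (6.83 ± 0.04), ligands of the BCMA receptor, were near background, as were CXCL12 (6.79 ± 0.02), the ligand of CXCR4, and TNF (6.67 ± 0.10). The list's median was 7.03 on replicate 2 and 6.83 to 6.85 on the others. Of 30 cytokine receptors 13 were above background (43.3%), near the 40.4% of all genes, such as IL10RB (10.23 ± 0.09), TNFRSF10A, a death receptor of TRAIL, at 9.87 ± 0.27, and IL15RA (9.34 ± 0.22). The common chains IL2RG (6.73 ± 0.10) and CSF2RB (6.64 ± 0.09) were near background.

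Among 29 measured adhesion and homing genes 15 were above background (51.7%, against 40.4% of all genes). Besides CXCR4, ITGA4 and CD44, the high genes were CADM1, an adhesion molecule of the immunoglobulin superfamily, at 11.91 ± 0.08, ITGB1, the beta chain that pairs with ITGA4, at 11.38 ± 0.19, and ICAM2 at 11.38 ± 0.11. The ITGB1 call was lost with plain probe sets alone. CCR10, the chemokine receptor of antibody-secreting cells of mucosa and skin, was moderate at 9.91 ± 0.18. ITGB7, the other partner of ITGA4, was near background at 7.35 ± 0.15, as were ITGB2 (6.94 ± 0.11), VCAM1 (6.39 ± 0.07) and CCR7 (6.39 ± 0.03).

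Most markers of other cells were near background. By list, 0% to 21.4% of them were above it, against 40.4% of all genes. For monocytes and myeloid cells 18 of 18 were near background, between FCGR1A at 6.24 and CSF3R at 7.05. Of 24 T and NK cell markers 3 were above: CD247, the zeta chain of the T cell receptor complex, was high with 11.18, 11.27, 11.12 and 11.21, CD8B was at 8.21 ± 0.22 and TRAT1 at 8.19 ± 0.34, and CD6 was mixed with 7.33, 7.25, 7.63 and 7.64. The other chains of that complex, CD3D (6.89 ± 0.13), CD3E (6.97 ± 0.16) and CD3G (6.68 ± 0.11), were near background on every array. Of 14 erythroid and megakaryocyte markers 3 were above: the globin genes HBD with 9.52, 9.83, 9.75 and 9.23 and HBB with 8.68, 8.74, 9.14 and 8.78, and EPOR at 8.28 ± 0.10. GP9, of platelets, was mixed with 7.25, 7.46, 7.67 and 7.72. The red cell factors GATA1 (7.27 ± 0.07) and KLF1 (6.71 ± 0.05), the heme enzyme ALAS2 (6.80 ± 0.04) and the globin chaperone AHSP (7.41 ± 0.16) were near background. Stroma and endothelium had 3 of 23 above, RUNX2 (10.21 ± 0.24), a bone factor, PECAM1 (8.59 ± 0.20) and COL1A1 (8.27 ± 0.24), while COL1A2 (6.67 ± 0.04) and COL3A1 (6.53 ± 0.04) were near background. Epithelium had MUC1 (9.62 ± 0.12) and KRT18 (7.91 ± 0.16) of 13 above, with EPCAM at 6.27 ± 0.05. Single probe sets disagreed for many of these markers. Above the line on 4 of 4 arrays were 1 of 6 for RUNX2 and 1 of 5 each for COL1A1, PECAM1 and EPOR. The count was 1 of 4 for CD8B and 1 of 2 for CD247. Under the line on 4 of 4 arrays were 5, 4, 3, 3, 3 and 1 in the same order. For HBB 3 of 4 were above and 1 under, and for MUC1 2 of 3 were above and 1 under. TRAT1, HBD and KRT18 had 1 probe set each.

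Cancer-testis genes, many of them normally silent outside germ cells, were above background at about the rate of all genes. Of 21 measured, 9 were above (42.9%, against 40.4%) and 4 were high (19%, against 9.02% of all genes). MAGEA4 had 12.40, 12.41, 12.05 and 12.17, MAGEA1 11.98, 12.06, 11.80 and 11.84, and PRAME 11.11, 11.14, 10.89 and 11.02, so no array was near the background line. PBK (12.14 ± 0.16) and TTK (10.17 ± 0.28), also above, are kinases of mitosis. PAGE1 (9.94 ± 0.12), DDX43 (9.36 ± 0.31), SPAG9 (9.47 ± 0.16) and ACTL8 (8.91 ± 0.42) were moderate. MAGEC1 (6.58 ± 0.06), MAGEC2 (7.26 ± 0.10), MAGEB2 (7.18 ± 0.30), CTCFL (6.76 ± 0.04) and SYCP1 (6.30 ± 0.04) were near background. In the background list itself KRT10 (9.94 ± 0.12) and KLK3 (7.97 ± 0.11) were above the line, 2 of 75.

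Band membership was compared between the arrays without and with the R mark for the high and near-background bands. Of the genes high on both unmarked arrays 95% were high on both marked ones, and 93.8% the other way round. For genes near background the shares were 97.5% and 97.4%. No gene was high in 1 pair and near background in the other. High genes were lower on the marked arrays, with a median difference of -0.22 (log2), and 10.7% of them were higher there, whereas genes near background had a median difference of 0.063 and 76.1% were higher. The split is 2 arrays against 2, too few for an exact permutation test to pass the threshold, and none was run. The bacterial control transcript bioB, added in labelled form before hybridisation, had 7.18 to 7.31 on replicate 1 and 7.11 to 7.25 on replicate 2, against 9.39 to 9.68 on replicate 3 and 9.18 to 9.48 on replicate 4 over its 3 probe sets. Its part in the shift was not tested.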

How the data were processed

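RNA of INA-6 cells was measured on Affymetrix HG-U133 Plus 2.0 arrays from 100 ng of total RNA. Values are the authors' log2 levels, summarised by RMA under R 3.0.1 per the submitters' processing notes. A joint normalisation of all arrays and any filter are not given in the sources. The lowest value of an array was 5.85 to 6.01. The 4 DMSO arrays were used, with medians of 6.88 to 6.94, and no pair held identical values for any probe set. Their number limits the precision, and no read depth applies.

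Controls (62 of 54675 probe sets) were dropped. The annotation gave 41091 probe sets 1 gene symbol, 1801 several and 11721 none, and the first kind was used. For each of 19775 genes, of which 10523 had several probe sets, the brightest probe set by mean over the DMSO arrays was taken. Some genes are not reported here.

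The background and high lines and the bands are defined in the report. Levels minus the line were tested with limma 3.58.1 in R 4.3.3 (intercept model, empirical Bayes without trend, one-sided) and checked on simulated data. Members and the 31 gene lists (830 symbols, 742 measured) were chosen with earlier results of these data known. Named genes were the 20 highest means, members of the lists on plasma cells, immunoglobulin, IL-6, the ERK cascade, oncogenes and BCL2, the 5 farthest above and 5 farthest below the line in other lists, high members of the marker, B cell, cancer-testis and tissue-restricted lists, and the 12 largest SDs above the line. Other members of lists named in the text were chosen after their values were seen. Alternatives were other lines, probe set rules, scalings, models and subsets of arrays.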

Additional observations from a re-analysis of the deposited data

Results flagged for a closer look

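In these results 1 of the 4 arrays lay far from the others compared with the spread of the rest, by Dixon's ratio of gap to range. This was checked for 313 list medians and named genes and met for 29, and chance alone meets it in about 1 of 20 groups, so small gaps in this list carry little. Values in brackets are the range of the other 3 arrays, on the log2 scale.

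Replicate 2 was apart in the median of the interferon response list, at 11.26 (7.33 to 7.60), and of the cytokine and chemokine list, at 7.03 (6.83 to 6.85). Among genes it was apart by at least 1 in CCL4 at 8.85 (6.62 to 6.75), IFI27 at 13.11 (7.17 to 7.93), IFIT1 at 11.64 (6.52 to 6.80), IFIT3 at 12.04 (6.52 to 6.96), IFNB1 at 8.45 (6.50 to 6.69), ISG15 at 13.77 (7.47 to 8.40), RASGRP3 at 8.63 (7.17 to 7.40) and TRIM22 at 11.20 (6.22 to 6.52). It was apart by less in BST2 at 12.57 (11.66 to 11.81), CALR at 10.68 (10.40 to 10.44), IRF4 at 11.99 (11.88 to 11.88), JAK2 at 7.79 (7.22 to 7.29), MYCN at 6.94 (7.14 to 7.17), PSMB9 at 11.84 (10.74 to 10.85) and SEC61B at 13.26 (13.09 to 13.11), of which MYCN was lower there. Replicate 1 was apart in MT1G at 12.83 (8.15 to 8.47), MT1X at 12.73 (8.50 to 9.02), MT2A at 13.33 (8.91 to 9.29) and PIK3CG at 9.08 (8.90 to 8.93). Replicate 3 was apart in CCND2 at 6.94 (6.64 to 6.64), CTCFL at 6.70 (6.77 to 6.79), IGHA1 at 6.81 (6.64 to 6.65), IRS2 at 6.69 (6.53 to 6.55) and KSR2 at 6.80 (6.70 to 6.71), where CTCFL was lower. Replicate 4 was lower in CDK6 at 12.16 (12.26 to 12.27), PAGE1 at 9.77 (10.00 to 10.01) and RASGRF2 at 6.92 (7.04 to 7.04). Whether a culture or a hybridisation set these arrays apart was not tested.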

How the results depend on the processing

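The number of genes above background was 7983 and ranged from 5867 with the line at the 99th percentile to 8900 at the 90th, and from 7882 to 7993 when 1 array was left out. The moderate band fell to 4153 genes with the 99th percentile line and the high band to 889 with the high line at the 95th percentile. The mixed band was 337 on the arrays without the R mark alone and 449 on those with it. Comparing fewer arrays can only lower this count, but the arrays compared also shared their mark or its absence. The part of each in these lower counts was not tested. Genes close to the line, or whose probe sets disagree, changed side, and the values are levels minus the line (log2). With the line at the 99th percentile these were AKT1 -0.65, BAD -0.24, BCL2L2 -0.19, BCL6 -0.26, BIK -0.20, CD40 -0.29, CD8B -0.27, COL1A1 -0.21, DEPTOR -0.22, DERL3 -0.13, EPOR -0.20, FGFR1 -0.64, HRAS -0.067, IGF1 -0.056, IL15 -0.12, ITGAL -0.49, KIT -0.34, KLK3 -0.51, KRT18 -0.57, MAPK3 -0.042, PIM1 -0.34, PMAIP1 -0.093, SOS2 -0.09, SPRED1 -0.01, STAT5B -0.11, TGFB1 -0.47 and TRAT1 -0.30. With the mean of a gene's probe sets they were CD40 -0.085, CD8B -0.32, COL1A1 -0.34, EPOR -0.04, FGFR1 -0.11, KLK3 -0.20 and SOS2 -0.16. With plain probe sets alone, without those marked as able to match several transcripts, they were CD79B -0.58, CD8B -0.54, FGFR1 0, IGLC1 -0.17, IL16 -0.44, ITGB1 -1.03, NR3C1 -0.64 and PABPC1 -0.35. No other alternative turned the direction of a named gene that was called above background. Genes without that call are not in these lists, and some crossed the line too. Over the alternatives IFIT1 (0.226 in the main setting) spanned -1.016 to 1.416. IFIT3 (0.397) spanned -0.921 to 1.617. Calls lost with the level still over the line were ACTL8, ARAF, BACH2, CCND3, IGF1R, IL12A, MT1X, MT2A, PECAM1 and SOCS3 with the 99th percentile line, AKT2, DEPTOR, IGLC1, RUNX2, SOCS3 and SPRED2 with the mean of probe sets, HBB and TGFB1 with plain probe sets, AKT1 and FGFR1 on the marked arrays alone, and AKT1, FGFR1 and KIT with 1 array left out. Calls were gained under at least 1 alternative by AHSP, BCL2, BCL2L1, CD6, CISH, GP9, IFI27, IGHM, ISG15, MT1G, PAX5 and STAT5A. With plain probe sets alone the line itself was lower. The gains of AHSP, BCL2, BCL2L1, CD6, PAX5 and STAT5A in that setting came with unchanged levels. Counts of list members above background moved by over 1.5 times in 12 of 31 lists with the 99th percentile line (B cell genes 6 to 3, the BCL2 family 9 to 5, cytokines and chemokines 7 to 3, epithelium 2 to 1, IL-6 signalling 17 to 11, interferon response 12 to 7, PI3K, AKT and mTOR 23 to 14, the RAS to ERK cascade 14 to 8, receptor tyrosine kinases 6 to 3, stroma and endothelium 3 to 1, T and NK cells 3 to 1 and tissue-restricted genes 2 to 1) and in 5 with plain probe sets (cytokines and chemokines 7 to 3, epithelium 2 to 0, glycolysis 16 to 6, ribosomal proteins 42 to 18 and tissue-restricted genes 2 to 0), the latter with fewer genes tested. They moved in 2 lists with the mean of probe sets (stroma and endothelium 3 to 1 and tissue-restricted genes 2 to 1) and for the tissue-restricted list with the 90th percentile line (2 to 6). The tissue-restricted genes set the line, so their own count follows from the percentile chosen. No paired analysis was possible because only the DMSO group was used. The lines are conventions: signal over background, not depth, limits which genes can be told from it, and a gene near background is not shown to be silent.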
